A study of Mus musculus with 4 samples.

Results

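JAK-STAT signalling genes and cytokine receptor chains were described in inflammatory cells of the mouse peritoneum, with and without the transcription factor C/EBPε. The group holds 10 genes of 6137 named on the arrays: the receptor chains Ifngr1, Ifngr2 and Il10ra, the Janus kinases Jak1, Jak2 and Jak3, and the transcription factors Stat3, Stat5a, Stat5b and Stat6. A probe set was taken as a member's when the platform annotation gave it exactly 1 gene symbol and that symbol was the member's. This gave 14 probe sets, 12 on the first array type (A) and 2 on the second (B). The genes were selected on the genotype ratios of these same arrays, so the ratios are a description and carry no test.

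Wild-type (C/EBPE +/+) and C/EBPε-deficient (-/-) mice of mixed 129/SvEv x NIH Black Swiss background, aged 6 to 8 weeks, were used, 4 of each genotype. All received 2 ml of 4% thioglycollate broth into the peritoneum, and the exudate cells were washed out 24 h later. The broth provokes a sterile inflammation in which neutrophils enter first and monocytes follow. By the labels' cytospin counts over 100 to 200 cells, neutrophils made up about 60% of either genotype's cells, monocytes 30% and lymphocytes 7 to 10%. Total RNA of each genotype was hybridised to 1 array of type A and 1 of type B, which carry different probe sets. The 4 arrays therefore give 1 pair of values for each probe set, and no value has a replicate. Whether cells of several mice were combined is not given in the sources used here.

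Cytokines of the interferon, interleukin and colony-stimulating factor families bind receptor chains that have no kinase of their own. Janus kinases attached to the chains phosphorylate each other, the receptor and then STAT proteins, which pair, enter the nucleus and bind DNA. In phagocytes, interferon gamma acts through JAK1 and JAK2, interleukin 10 through JAK1, TYK2 and STAT3, and interleukin 4 through STAT6. JAK3 is the kinase that pairs with the common gamma chain of the interleukin 2 receptor family.

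Promoter sequences of 4 members are shown because Jak3 and Ifngr1 had the largest differences between the genotypes, and because the windows of Jak2 and Stat3 held a match to a C/EBP consensus. A further match, in 1 of the 2 windows of Stat5b, is described with them. Each is the 250 bases before a RefSeq transcript start on GRCm38.p6, written on the gene's strand. Capitals mark TTNNGNAA, a loose C/EBP consensus searched on both strands. The windows are chr8:71676133-71676382 (plus strand) for Jak3, chr10:19591699-19591948 (plus) for Ifngr1, chr11:100939541-100939790 (minus) for Stat3 and chr19:29251553-29251802 (plus) for Jak2.
Jak3: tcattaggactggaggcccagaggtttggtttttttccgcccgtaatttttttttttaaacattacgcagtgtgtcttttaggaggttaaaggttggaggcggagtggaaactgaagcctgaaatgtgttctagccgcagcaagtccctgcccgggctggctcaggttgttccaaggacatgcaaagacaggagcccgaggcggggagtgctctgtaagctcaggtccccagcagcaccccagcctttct
Ifngr1: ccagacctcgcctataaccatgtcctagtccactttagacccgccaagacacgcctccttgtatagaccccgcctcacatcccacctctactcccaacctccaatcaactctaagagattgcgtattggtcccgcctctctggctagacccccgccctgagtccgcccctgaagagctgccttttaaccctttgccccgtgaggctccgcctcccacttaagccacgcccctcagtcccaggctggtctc
Stat3: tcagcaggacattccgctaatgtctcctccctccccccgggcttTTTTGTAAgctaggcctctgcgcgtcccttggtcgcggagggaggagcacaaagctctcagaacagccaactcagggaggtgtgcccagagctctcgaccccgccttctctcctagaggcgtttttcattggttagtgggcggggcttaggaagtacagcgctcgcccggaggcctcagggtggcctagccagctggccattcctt
Jak2: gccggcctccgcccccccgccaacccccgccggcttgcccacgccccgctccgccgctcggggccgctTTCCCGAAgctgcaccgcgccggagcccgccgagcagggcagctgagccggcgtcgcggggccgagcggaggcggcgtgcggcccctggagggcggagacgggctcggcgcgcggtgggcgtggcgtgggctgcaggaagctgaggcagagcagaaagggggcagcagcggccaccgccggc

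The match in the Stat3 window starts 206 bases before the transcript start and reads TTTTGTAA, and that in the Jak2 window starts 182 bases before it and reads TTCCCGAA. In the Stat5b window at chr11:100822571-100822820 (minus strand) the match TTTAGAAA starts 228 bases before the start. The windows of Jak3 and Ifngr1 held no match. Of all 32851 RefSeq windows, 36.8% held at least 1, so a match is common. The STAT-binding GAS consensus TTCNNNGAA, searched the same way and able to overlap the first motif, was in none of the 11 windows of 9 members and in 7.02% of all windows. Windows matched by symbol to 9 of the 10 members. A match is a description of letters and no sign of binding.

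Jak3, Ifngr1 and Il10ra gave higher signal in the deficient cells, by 3.94-fold, 2.73-fold and 2.08-fold, and no member was lower by 2-fold. The remaining 6 measured members differed by less than 2-fold. A gene was measured when its signal exceeded a floor, the median signal of both arrays of its type (1036.5 on A and 690.2 on B), in both genotypes. By this rule 9 members were measured, and Ifngr2 exceeded the floor in the deficient cells only. The 3 members higher by 2-fold stand beside 2.97% of all 3132 measured genes that were higher by as much, and the 0 that were lower beside 3.64%. The members' median log2 ratio, deficient over wild-type, was 0.12 (7 above 0, 2 below), against 0.01 over all measured genes. By probe set, 3 of the members' 12 measured were higher by 2-fold and 0 lower, where the shares over all 5903 measured probe sets were 3.39% and 3.46% (6.84% in either direction). For genes the share in either direction was 6.61%. Among probe sets above the floor on 1 array only, bounds of 2-fold were met by 12% upward and 9.5% downward, and Ifngr2, the 1 such member, did not meet it. Since these ratios chose the genes, nothing is read from those differences.

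**Figure D1:**
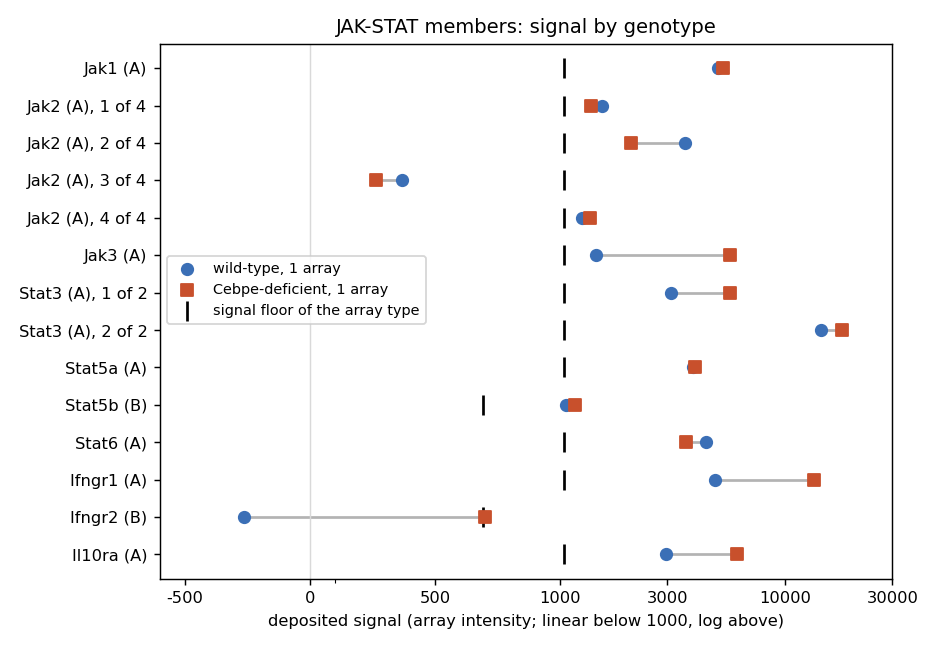
Deposited signal of each member probe set (array intensity, linear near 0 and logarithmic above) in wild-type (circles) and Cebpe-deficient cells (squares), 1 array each, with the signal floor of the array type as a bar. The pairs of Jak3, Ifngr1 and Il10ra are the widest above the floor, and those of Jak1 and Stat5a nearly coincide.

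The receptor chains come first in the pathway. Ifngr1 encodes the chain that binds interferon gamma. Its signal was 4894 in the wild-type and 13382 in the deficient array, both well over the floor, a log2 ratio of 1.45 ± 0.33. The error is the pooled SD of ratios between repeat probe sets of a gene on these arrays (0.33 at 3 times the floor or more, 0.45 below). It holds error that differs between probe sets. Error that repeat probe sets share, as from the same RNA or the same pair of arrays, is not in it, nor is spread between mice. Ifngr1 ranked 26 of 3132 genes from the highest ratio.

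Ifngr2, the second chain of the same receptor, needed for its signal, read -264 in the wild-type array and 700 in the deficient one. The first is below the floor of type B and the second just above it, so the fold is only bounded, at least 1.01-fold higher, and the difference was not resolved. Of readings on these arrays, 20.6% to 29.3% were below 0, with a root mean square size of 1412 to 1612. The gap between the Ifngr2 readings, 964 after scaling, is smaller than that size. It is larger than the median size of the readings below 0, which was 470 to 509.

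Il10ra encodes the ligand-binding chain of the interleukin 10 receptor, which carries the main signal that restrains macrophage activation. It read 2947 in the wild-type and 6140 in the deficient array, a log2 ratio of 1.06 ± 0.33, rank 81 of 3132. The value is just past 2-fold. With an offset of 1526, the mean root mean square of the readings below 0, added to both arrays before the ratio, it was 0.78.

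The other class II receptor chains named on the arrays gave higher signal too, each by less than 2-fold. Il10rb, the chain interleukin 10 shares with related cytokines, read 8810 and 10932 (log2 ratio 0.31). Ifnar1 and Ifnar2, the chains of the type I interferon receptor, read 7192 and 8149 (0.18) and 1183 and 1974 (0.74, with wild-type signal near the floor). Il10rb and Ifnar1 differed by less than the measurement error of 0.33. Ifnar2 differed by more than its error of 0.45, but its log2 ratio was 0.37 with the offset. All 5 measured genes of this family were above 0, with a median of 0.74, or 0.52 with Ifngr2 at its bound. That median stayed between 0.68 and 0.94 under the 5 other scalings and 2 other floors. The list of 8 genes includes the 2 measured members chosen for their ratios. Without the members its median was 0.31, over 3 measured genes.

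Of 29 class I receptor chains, 20 were named and 8 measured, 4 above 0 and 4 below (median 0.02). Csf2rb2, the interleukin 3 receptor beta chain, read 4389 and 9614 and was 2.19-fold higher. With the offset it was below 2-fold (log2 ratio 0.91). Csf3r, a neutrophil gene for the G-CSF receptor, read 31162 and 12566 and was 2.48-fold lower. Il4ra, through which interleukin 4 reaches STAT6, read 6072 and 3101 (-0.97), and Csf2ra, the alpha chain for granulocyte-macrophage colony-stimulating factor, 16752 and 25902 (0.63). The chains therefore did not move as a block. The family's median was below 0 with equal medians, loess and both other floors, at lowest -0.17. It was 0.29 with scaling to the bacterial spike-in controls, where the median of all genes was 0.24.

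**Figure D2:**
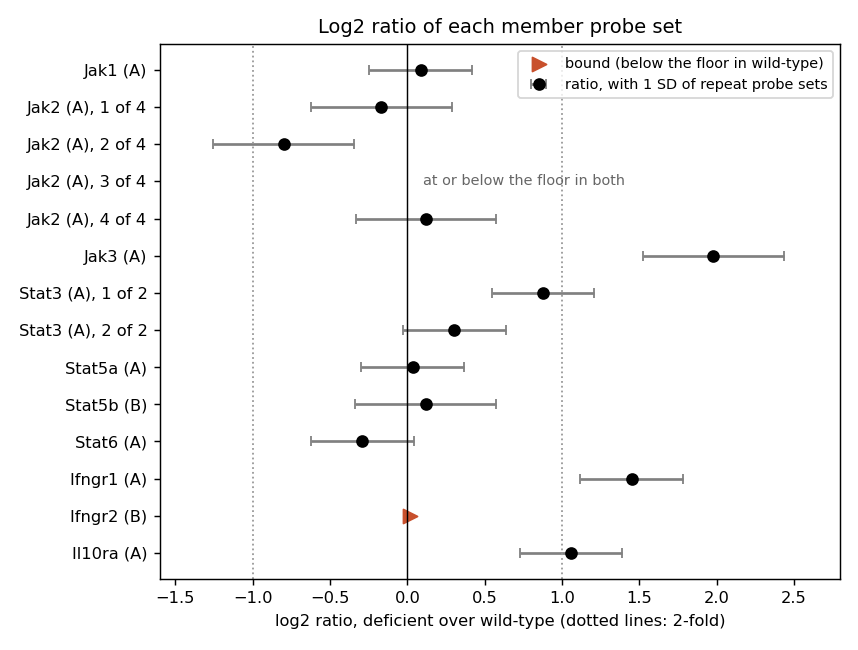
Log2 ratio, deficient over wild-type, of each member probe set, with bars of 1 SD of repeat probe sets (no spread between mice). Dotted lines mark 2-fold: Jak3 at 1.98, Ifngr1 at 1.45 and Il10ra at 1.06 are past it, the Jak2 probe sets lie between -0.80 and 0.12, and Ifngr2 has a bound of 0.02.

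Among the kinases, Jak3 differed most. It read 1443 in wild-type cells, near the floor, and 5687 in deficient cells, 5.49 times the floor. The log2 ratio was 1.98 ± 0.45, the seventh highest of the 3132 measured genes (rank 7). Raising the floor to the 70th percentile left only a bound of 1.15, and the offset gave 1.28.

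JAK3 works with the common gamma chain, whose gene Il2rg was not analysed here. Of the chains that pair with it, Il2rb (907 and 815), Il2ra (406 and 298) and Il7r (397 and 419) were below the floor in both genotypes. Il9r read 1542 and 1644 (log2 ratio 0.09), and Il15ra, by its measured probe set, 2601 and 2134 (-0.29). Il4ra, also such a chain and the brightest of them, read 6072 and 3101 (-0.97). JAK3 is best known from lymphocytes, so lymphocyte markers are given beside it. Of 13 named T and NK cell markers 2 were measured, at -0.66 and -0.20, and 9 were below the floor in both genotypes, among them Cd3d, Cd3g, Cd4 and Cd8a. Their summed signal, with dim readings set to the floor, was 15484 in wild-type and 12902 in deficient cells. Markers below the floor in both genotypes add the same constant to both sums. Most of the difference comes from Gzma (4379 and 2771) and Cd3e (1901 and 921, the latter set to the floor). The sums are therefore no measure of T and NK cell content. Of 9 named B cell markers 7 were measured, from -0.50 to 0.87 (median 0.24, or -0.11 over the higher floor), and their sums were 60481 and 53851. Of the B cell markers 4 were above 0, such as Vpreb1 (0.87) and Cr2 (0.68), and 3 below, among them Ighm (26759 and 18904), which makes up much of the sum. Vpreb1 and Cr2 were near the floor in wild-type cells (723 and 1255), and the other Cr2 probe sets were below it in both genotypes. Ms4a1 stood at 0.48, and at -0.30 by its other probe set. The part of lymphocytes in the Jak3 difference was not tested. In RNA of a mixed exudate, more cells of a type and more RNA per cell cannot be told apart.

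Jak1, which serves most of these receptors, read 5011 and 5317 (log2 ratio 0.08 ± 0.33), a difference smaller than the measurement error. Jak2, the kinase of the interferon gamma, interleukin 3 and growth factor receptors, had 4 probe sets that disagreed. That with the highest signal over the floor read 3603 and 2071 (-0.80 ± 0.45). The others read 1540 and 1371 (-0.17), 1253 and 1362 (0.12) and, below the floor, 368 and 264. The mean over the 3 measured ones was -0.28, so a lower Jak2 rests on 1 probe set. Tyk2, the remaining Janus kinase, was not analysed here.

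None of the 4 measured STAT genes differed by 2-fold. Stat3, which answers interleukin 10, interleukin 6 and granulocyte colony-stimulating factor, had 2 probe sets. That read for the gene gave 14509 and 17899 (log2 ratio 0.30 ± 0.33) and the other 3113 and 5715 (0.88 ± 0.33). Both were higher in the deficient cells, but only the latter by more than the measurement error, and the mean was 0.59.

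Stat6, the factor of interleukin 4 and interleukin 13, read 4449 and 3635 (-0.29 ± 0.33). Stat5a read 3880 and 3973 (0.03 ± 0.33). Stat5b, its closely related neighbour on the chromosome, read 1067 and 1160 on type B (0.12 ± 0.45). The sign of its ratio turned with equal medians (-0.05) and quantile scaling (-0.04). Both Stat5b readings are smaller than the root mean square of the readings below 0 on these arrays (1548 and 1412). They are larger than the median size of those readings (485 and 470). None of these 3 genes differed by more than its measurement error. Stat4, a factor of lymphocytes, read 116 and 473, below the floor, and Stat2 was not analysed here.

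**Figure D3:**
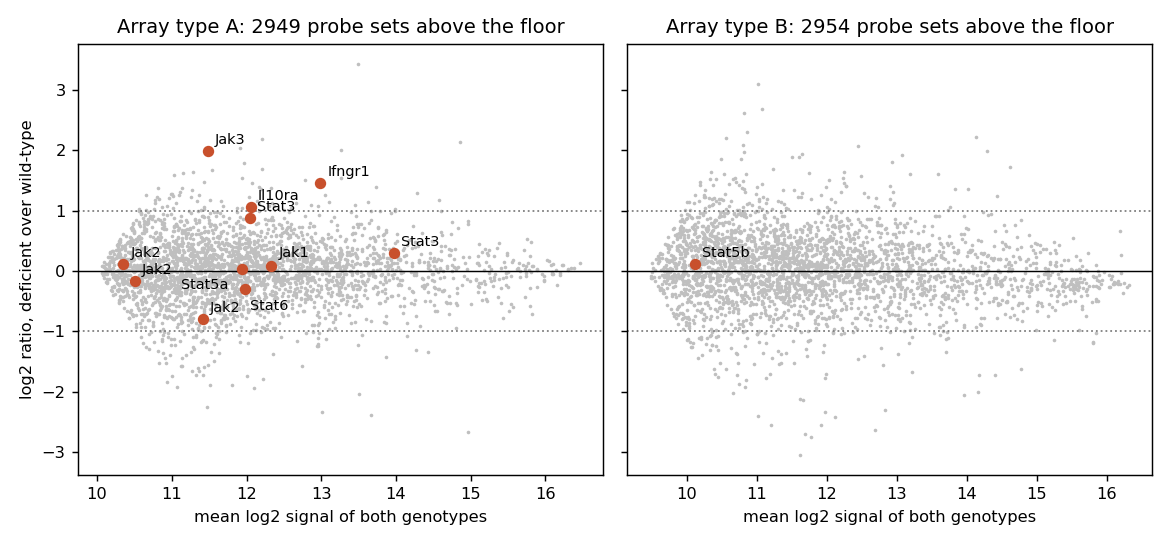
Log2 ratio, deficient over wild-type, against mean log2 signal for all probe sets above the floor on both arrays (grey, types A and B) with the member probe sets in red. Ratios spread more widely at low signal. Ifngr1 stands at the rim of the cloud at bright signal, and Jak3, at dimmer signal, is among the highest of type A.

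The measured probe sets of 6 of the 9 members, Jak3, Ifngr1 and Il10ra included, carry the suffix _s, which by the maker's convention marks probes that may match more than one transcript. Without suffixed probe sets Jak1, Jak2 and Stat5b remained, at 0.08, -0.17 and 0.12, and 0 members were past 2-fold. Of the 10 members, 8 were measured on type A alone and 1, Stat5b, on type B alone, so the 3 higher genes rest on 1 pair of arrays.

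The rest of the pathway was followed through lists of ligands, inhibitors and target genes. Of 153 pathway genes that are no member, 121 were named, 59 measured, 13 bounded and 49 below the floor. By 2-fold or more 1 was higher (1.69% of those measured, against 2.97% of all genes) and 8 were lower (13.6%, against 3.64%). All but 2 of these 9 were target genes. The bounded ones held 1 gene higher and 3 lower by 2-fold or more, against 9.89% and 9.08% of 617 bounded genes overall. The lists were drawn up with results of these arrays known and overlap one another, so these counts describe them only.

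Ligand genes were mostly dark: of 26 named, 17 were below the floor in both genotypes, among them Ifng (-400 and -45), Il4 (719 and 1016) and Il6 (500 and -29). None of the 6 measured differed by 2-fold. Apart from Csf3 they were Ifna1, Ifna5, Ifna9, Gh and Prl, all on type B, with readings from 891 to 2469. A signal above the median floor does not by itself show that the transcript is present. Csf3, granulocyte colony-stimulating factor, read 4364 and 3939 (-0.15). Il10 exceeded the floor only in deficient cells by 1 probe set (350 and 1191, at least 1.15-fold), while its other one read 634 and -84. Il3 read 681 and 1549 and was at least 2.24-fold higher. Both readings are dim, the wild-type one just under the floor of 690.2, and with the offset the log2 ratio of Il3 was 0.48.

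Inhibitors of the pathway showed no difference of 2-fold among 6 measured genes, of which 5 were above 0 (median 0.50, or 0.06 over the 9 measured when the floor was the 30th percentile). Socs3, the feedback inhibitor that STAT3 induces, was the 1 below 0, at 7895 and 5809 (-0.44). Cish, the feedback inhibitor that STAT5 induces, read 1779 and 2845 (0.68). Ptpn1, the phosphatase PTP1B that acts on Janus kinases, read 20561 and 30928 (0.59), and Cbl, a ubiquitin ligase of activated receptors, 3324 and 6017 (0.85). Ptpn6, the phosphatase SHP-1, was bright and nearly equal, at 25726 and 26781 (0.06). Socs1 was below the floor in both genotypes, at 554 and -13.

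**Figure D4:**
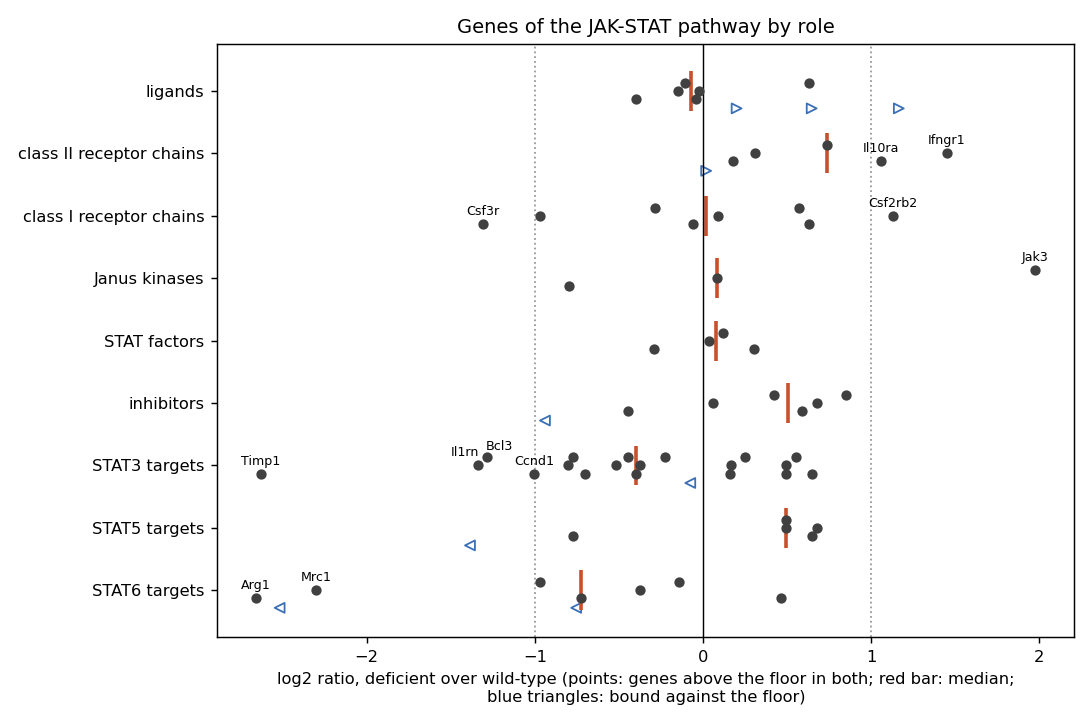
Log2 ratio, deficient over wild-type, of pathway genes by role: points are genes above the floor in both genotypes, red bars the medians, and blue triangles bounds against the floor; genes past 2-fold are named. Class II receptor chains lie to the right of 0, while the STAT3 and STAT6 target lists reach furthest to the left, to Timp1 at -2.63 and Arg1 at -2.66.

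Among the target lists, STAT3 targets divided, with 12 of 19 measured genes below 0 (median -0.40), 4 of them lower by 2-fold or more and 0 higher. Timp1, whose product blocks matrix-degrading proteases, read 16503 and 2670, 6.19-fold lower, and Il1rn, the interleukin 1 receptor antagonist, read 35236 and 13917, 2.53-fold lower. Bcl3, a nuclear cofactor of NF-κB, read 5227 and 2150, 2.44-fold lower, and Ccnd1, cyclin D1, 7534 and 3760, 2.01-fold lower. With bacterial-control scaling and with the offset, Bcl3 (-0.93 and -0.88) and Ccnd1 (-0.65 and -0.78) were under 2-fold. At the upper end Hp, haptoglobin, stood at 0.55 and Bcl2l1, which encodes BCL-XL, at 0.65, with 1.38 by its probe set on type A. All of these genes also answer other signals.

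STAT5 targets had 4 of 5 measured genes above 0 (median 0.50) and none past 2-fold. Cish, Bcl2l1, Ccnd3 and Bcl6 were between 0.50 and 0.68, and the kinase gene Pim1 was at -0.78. Bcl6 read 1054 in wild-type cells, near the floor of 1036.5. Pim1, Bcl2l1, Ccnd3 and Bcl6 also count among the STAT3 targets and Cish among the inhibitors. The STAT5 list is therefore no result separate from those lists. Id1, a dominant-negative partner of helix-loop-helix factors, was at least 2.61-fold lower (1802 and 515), and its log2 ratio with the offset was -0.71. STAT6 targets had 6 of 7 below 0 (median -0.73). Klf4 was the 1 above 0, at 2887 and 3978 (0.46). Chil3 read 15706 and 12123 (-0.37), and Tgm2 11798 and 10694 (-0.14, less than the measurement error of 0.33). Il4ra is also counted among the class I chains and Mrc1 among the macrophage markers. Arg1, arginase 1, read 80067 and 12695, 6.31-fold lower. Mrc1, a lectin receptor of macrophages, read 16134 and 3283, 4.92-fold lower. Egr2, a transcription factor, exceeded the floor in the wild-type array alone (3950 and 499). Against the floor it was at least 5.73-fold lower, with a log2 bound of -0.95 at the 70th percentile. With the offset its log2 ratio was -1.44. Alox15, a lipoxygenase that interleukin 4 induces, read 13661 and 8262 (-0.73). Stat6 itself differed by less than its error, as above.

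Markers of cell types are described beside the members. They do not measure cell numbers, since RNA of a marker per cell may itself differ between the genotypes. By the labels' cytospin counts, neutrophils were about 60% in either genotype. Of 12 measured monocyte and macrophage markers, 8 were below 0 (median -0.47, range -2.30 to 0.97), with summed signals of 472076 in wild-type and 419046 in deficient cells. Of 10 measured neutrophil markers, 8 were below 0 (median -0.38, range -1.57 to 0.36; sums 264345 and 206985). By 2-fold or more, Ly6g (3921 and 1449), Ngp (3835 and 1293) and Csf3r were lower among the neutrophil markers, and Cxcr2 (2120 and 571) by its bound, while S100a8 read 66423 and 62899. Cd14 (84127 and 41219) and Mrc1 were lower by as much among the monocyte and macrophage markers, while Cd68 read 41539 and 50831 and Ccr2 11204 and 21898. Camp, a neutrophil granule gene, was below the floor in both genotypes. Mast cell and eosinophil markers had a median of -0.35 (5 genes; sums 21789 and 18156) and mesothelial and fibroblast markers a median of -0.57 (5 genes; sums 22922 and 14216). The latter was -1.51 with the 30th-percentile floor, -1.14 with the 70th (2 genes) and -0.22 with bacterial controls. Scaled to those controls, the medians were -0.10 for neutrophil, -0.20 for monocyte and macrophage and -0.15 for mast cell and eosinophil markers. The median of all genes was then 0.24. Less the median of all genes, these 3 marker medians were -0.34, -0.44 and -0.39 with those controls. In the main setting they were -0.39, -0.48 and -0.36. For mesothelial and fibroblast markers the values were -0.46 and -0.58. The part of these shifts in the members' ratios was not tested. Probe sets for the ends of Actb and Gapdh transcripts gave 3′ to 5′ signal ratios of 0.76 to 0.89 on the 4 arrays. No probe set used here is named Cebpe, so the deletion was not checked on these arrays.

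**Figure D5:**
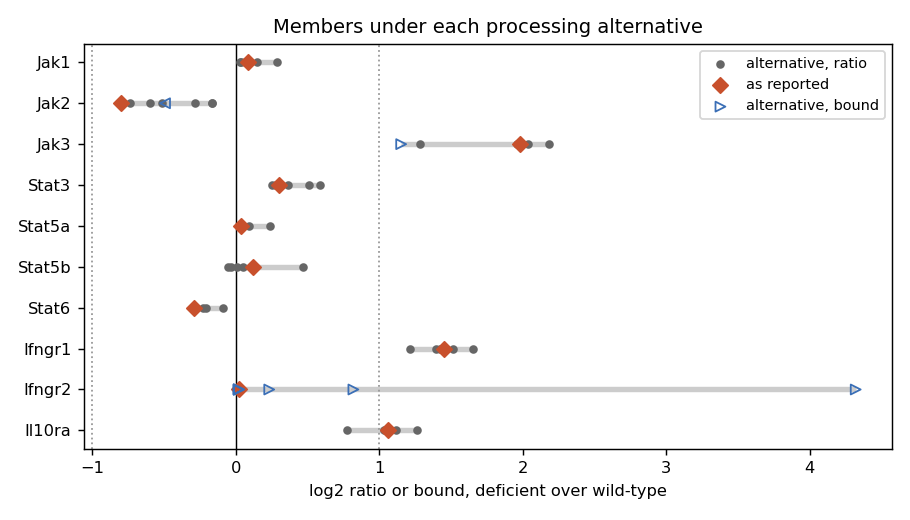
Log2 ratio or bound, deficient over wild-type, of each member under the processing alternatives (grey points, bounds as blue triangles) with the reported value as a red diamond. Where they had a value, Ifngr1 ran from 1.21 to 1.65 and Jak3 from 1.15 to 2.18, all past 2-fold; Il10ra ran from 0.78 to 1.26, and the far bound of Ifngr2 comes from the lowest floor.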

How the data were processed

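The arrays measured total RNA of peritoneal exudate cells, 1 array per genotype and type, grouped by sample title. On type B only the title of the deficient sample gives the deficiency; its RNA source label omits it. The deposited values are linear array intensities, whole numbers per probe set. How the authors scanned, background-corrected and scaled them is not given in the sources used here. The platform annotation supplied gene names.

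Within a type both arrays were brought to an equal mean over probe sets that are not controls, after trimming 2% at each end (factors 0.999 to 1.001). Signals are printed as deposited, and ratios use scaled values. A probe set above the floor on 1 array gave a bound. A gene was read by its measured probe set with the highest signal over the floor. With 1 array on each side there was no test. The members and lists were chosen with earlier results of these data known. The rule named every member, Janus kinase, STAT and class II receptor chain and every pathway gene past 2-fold, except those left out here. Others were named with their values in view. Some genes and 1 target list that count in the pathway totals are not reported here. The alternatives were equal medians, quantile, loess (span 0.3), bacterial controls, unscaled values, floors at the 30th and 70th percentile, 3-fold, each array type alone, the mean over probe sets and no suffixed probe sets. Keeping the suffix _s, and the offset, were chosen after seeing the data. Simulated arrays with known changes served to test the code. Software was Python 3.11.15 with scipy 1.17.1, numpy 2.4.6, statsmodels 0.14.6, pandas 2.3.3 and, for plots, matplotlib 3.10.9. The number of arrays limits the precision.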

Additional observations from a re-analysis of the deposited data

How the results depend on the processing

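With 1 array per genotype and type, no alternative can stand in for replicates, and dim readings such as those of Jak3 in wild-type cells and of Ifngr2 are limited by background. The count of members higher by 2-fold was 3 under the 5 other scalings, the floor at the 30th percentile, type A alone, the mean over probe sets and without suffixed probe sets other than _s. It was 2 at a 70th-percentile floor, where Jak3 had a bound, and with the offset, where Il10ra was under 2-fold. It was 1 at 3-fold and 0 on type B alone and without any suffixed probe sets, settings that leave 1 and 3 members measured. The count of lower members was 0 throughout. Bacterial-control scaling moved the median of all genes from 0.01 to 0.24 and that of the members from 0.12 to 0.47. Of 283 values of 26 named genes under the alternatives, 262 moved by less than the measurement error of 0.38, 21 by more, and 0 of those past 2-fold changed sign. Many of the 262 repeat the main value by construction. A gene read by the same probe set keeps its ratio on its array type alone and, where still measured, over other floors. Averaging leaves a gene with 1 measured probe set as it was, and keeping _s leaves genes read by those. Ifngr1 stayed at 1.45 and Il10ra at 1.06 in all these settings, and Jak3 at 1.98 in all but the 70th-percentile floor. Nothing on stability is read from such repeats. The lowest and highest values of Jak2 were -0.80 and -0.17.

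Over all measured probe sets, 200 were at least 2-fold higher and 204 at least 2-fold lower. These became 488 and 110 with bacterial controls, so that 81.6% of the calls were higher in place of 49.5%. They became 660 and 630 with the floor lowered to the 30th percentile, 76 and 67 when raised to the 70th, 38 and 49 at 3-fold, 75 and 93 on type A, 125 and 111 on type B, 35 and 32 without suffixed probe sets and 57 and 66 with the offset. Among the other pathway genes, 1 higher and 8 lower became 6 and 17 at the 30th-percentile floor, 0 and 4 at 3-fold, 2 and 4 on type A, 0 and 4 on type B and 0 and 1 without suffixed probe sets. The higher count was 2 with equal medians, quantile and bacterial-control scaling and the mean over probe sets, and 0 with the offset.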
